A study of Aedes aegypti with 20 samples.

Results

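In the yellow fever mosquito Aedes aegypti, 96 of 19804 gene IDs were moderately higher in females than in males in the pedicel and in the head alike. They were chosen by their own levels. The estimated counts of a gene's transcripts were added up and scaled to the library total as CPM, so that every library sums to the same total, and the median of each group was taken. A member had a median of at least 5 CPM in female pedicels and in female heads. Its ratio of the female to the male median, with 0.1 added to each, was at least 2 in both tissues and under 16 in at least 1 of them. Its female pedicel median was under 2 times its female head median. The sex difference in each tissue and the difference between female pedicel and female head were thus used for the choice, and both are given below as description, with no test. The tissue difference in males and the use of transcripts within a gene were not conditions of the choice, and both were tested. The choice did cap both male medians relative to the female ones, so the male comparison is not independent of it. A transcript found mainly in females also raises its gene's female over male ratio, so transcript use is not independent of the choice either.

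The pedicel is the segment of the antenna that holds Johnston's organ, the hearing organ of mosquitoes, in which males of this species listen for the wing beats of females. The head holds the brain, the eyes and the mouthparts, and female mosquitoes, which bite, differ from males in feeding and in the search for a host. A gene can be higher in 1 sex because each cell makes more of its transcript or because that sex has more of the cells that make it, and in bulk tissue more cells of a type and more RNA per cell cannot be told apart.

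All animals were of the Liverpool strain. They were collected in groups after 2 days of entrainment in an incubator and flash-frozen at zeitgeber time 12, the females without a blood meal and the males virgin. The 4 groups were female pedicel, male pedicel, female head and male head, each with 5 libraries. The deposited table calls the pedicel columns by Johnston's organ and the head columns by the brain, whereas the labels give pedicel and head, and the label names are used here. No label tells if each library was made from other animals than the rest of its group. The p-values below therefore reflect variation among the libraries, which may be technical.

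Library totals ran from 5060010 to 9404311 estimated counts. Of the 19804 gene IDs, 11381 had enough counts to be tested, and all 96 members were among them. The files pair no ID with a gene name and 0 IDs matched the gene table at hand, so that genes are given by ID without a function, and no marker of a cell type could be checked by name. The pedicel libraries differed in how much head transcript they held. This level is the median, over 50 genes found in heads and lowest in pedicels, of a gene's level in percent of its mean in heads. It was 34.1% to 67.8% in female pedicels and 4.34% to 36.6% in male pedicels. Male pedicel 2, at 36.6%, stood apart from the other 4 male pedicels, which reached at most 5.64%. Some results that include it are also given without it, and the others are given only with it. None of the 50 genes is a member.

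Most members had low to middle CPM, a scale that does not account for transcript length. Their median CPM on library totals had a median over the 96 genes of 14.9 in female pedicels (5.22 to 788) and 5.41 in male pedicels (0.156 to 364). In heads it was 17.7 in females (5.48 to 1432) and 5.36 in males (0.158 to 644). In female heads 13 members reached 100 CPM and 23 lay under 10 CPM. Summed over the members, their counts made up 0.34% to 0.68% of a female pedicel library and 0.10% to 0.27% of a male pedicel library. The shares in heads were 0.52% to 0.87% in females and 0.19% to 0.31% in males. The groups of libraries of the 2 sexes did not overlap in this sum in either tissue, as the choice of members makes likely.

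The female over male ratio of medians had a median of 2.80 over the members in the pedicel and of 3.06 in the head. It was under 4 in both tissues for 49 members and at least 4 in both for 13. Another 13 members reached 4 in the pedicel alone and 21 in the head alone. The ratio was larger in the head for 62 members and larger in the pedicel for 34. A ratio of 16 or more in 1 tissue was found for 1 member in the pedicel, AAEL002656 at 34.6, and for 6 members in the head. Female pedicels were lower than female heads in the median for 59 members, and the ratio of the 2 had a median of 0.891.

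Genes lay on both sides of each limit of the choice. At the lower limit of the ratio in the head, AAEL019767 (2.01) and AAEL026540 (2.03) were just inside and AAEL004247 (1.98) and AAEL000028 (1.96) just outside, and 360 genes missed by this limit alone. At that of the pedicel, AAEL001863 and AAEL010850 (both 2.03) were inside, AAEL002759 (2.00 as rounded) and AAEL010867 (1.96) were outside, and 141 genes missed by it alone. The limit of 16 on the smaller ratio set 44 genes apart, with AAEL013532 (14.4) and AAEL001402 (14.2) inside and AAEL026955 (18.1) and AAEL009852 (18.3) outside. These counts take in genes at any distance outside a limit, so they do not show how many lay close to it.

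The other limits concerned fewer genes. AAEL025532 (5.22) and AAEL003864 (5.33) were just above the CPM minimum in female pedicels, and AAEL008757 (4.58) and AAEL005179 (4.48) were just below it, where 8 genes missed by this alone. In female heads AAEL007626 (5.48) and AAEL014019 (5.49) were inside, AAEL005748 (4.90) and AAEL003841 (4.58) were outside, and 9 genes missed. For the female pedicel over female head ratio the inner genes were AAEL005656 (1.73) and AAEL029072 (1.68) and the outer ones AAEL009018 (2.16) and AAEL021440 (2.41), and 8 genes missed.

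From here on, CPM is normalised for library composition with TMM (trimmed mean of M values), and log2 folds with their standard errors come from 1 edgeR fit of all 20 libraries. In the pedicel the members' log2 fold, female over male, had a median of 1.88 (0.72 to 5.59), beside 0.02 over all genes tested. In the head the median was 1.61 (0.52 to 5.22), beside -0.03 over all genes. At an adjusted p under 0.05, 90 of 96 members were called higher in females in the pedicel, where 21.2% of all genes tested were, and 83 of 96 in the head, where 6.73% were. The lowest female library lay above the highest male library for 84 members in the pedicel (10.5% of all genes tested) and for 81 in the head (7.20% of all genes tested). Without male pedicel 2 the median in the pedicel was 1.92. Since the choice rested on these contrasts, nothing is read from the counts.

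**Figure D1:**
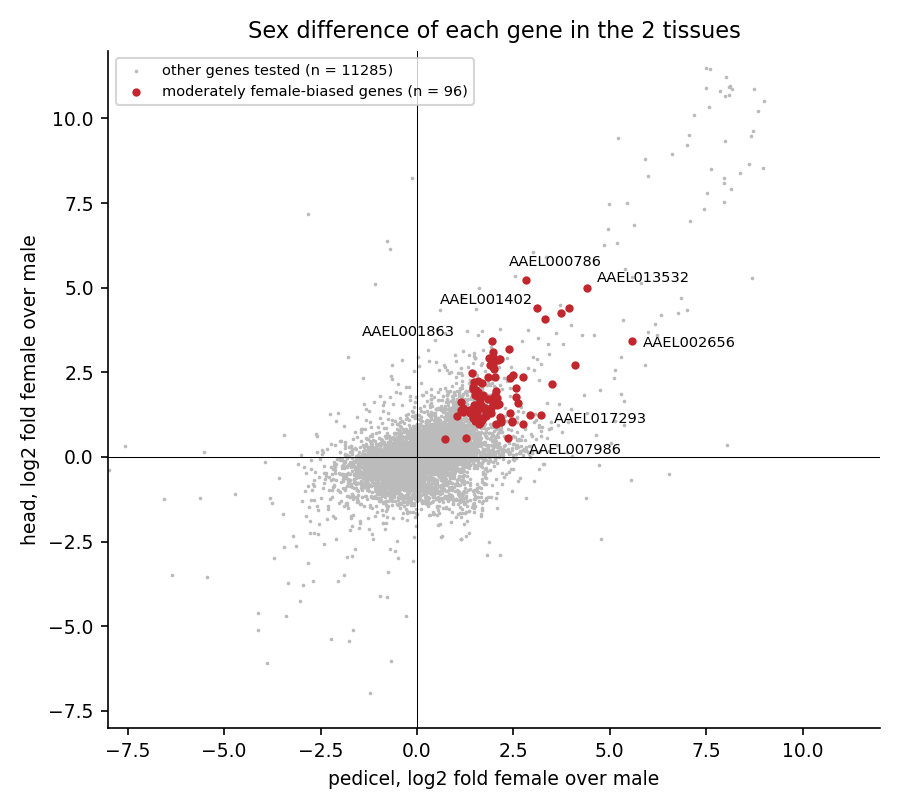
Log2 fold, female over male, of each gene in the pedicel (x axis) and in the head (y axis) from the fit of all 20 libraries. The 96 moderately female-biased genes (red) all lie to the upper right of the origin, at 0.72 to 5.59 in the pedicel and 0.52 to 5.22 in the head, and grey points are the other genes tested.

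The 2 members with the highest CPM in female heads showed different patterns across the tissues. AAEL007986 had 282, 594, 176, 833 and 191 CPM in the 5 female pedicels, against 80.7, 120.5, 32.9, 122 and 22.8 CPM in the 5 male pedicels. Heads held 1406, 949, 824, 1280 and 1465 CPM in females, against 654, 807, 406, 531 and 420.2 CPM in males. In both tissues each female library lay above each male library, with a narrow margin in the head, where the lowest female value was 824 and the highest male value 807 CPM. This gave a log2 fold of 2.46 (SE 0.48) in the pedicel and 1.07 (SE 0.46) in the head.

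AAEL019799 had 1041, 1020.2, 755, 989 and 1079.9 CPM in female pedicels, against 351, 288, 421, 419 and 295 CPM in male pedicels. In heads it had 1053, 545, 914, 1049.6 and 838 CPM in females, against 218, 223, 207, 230.0 and 218 CPM in males. Both groups of females were near the same level and above both groups of males. The 5 male heads lay closest together, averaging 219 ± 8.37 CPM, against 880 ± 209 CPM in female heads (SD, n = 5 each). The log2 fold was 1.46 (SE 0.16) in the pedicel and 2.01 (SE 0.17) in the head.

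The 2 members that came closest to the limit of 16 were low in males in both tissues. AAEL013532 had 8.48, 20.4, 3.01, 14.7 and 14.1 CPM in female pedicels, against 0.699, 0.209, 0.693, 1.60 and 0.226 CPM in male pedicels. Heads held 18.1, 17.7, 16.3, 29.7 and 19.8 CPM in females, against 0.630, 0.338, 1.23, 0.134 and 0.704 CPM in males. The lowest female library, pedicel 3, was still above the highest male library, and the male values rest on 19 counts in all pedicels and 25 in all heads. This gave a log2 fold of 4.40 (SE 0.53) in the pedicel and 5.00 (SE 0.50) in the head.

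AAEL001402 had 18.4, 35.4, 17.4, 19.4 and 21.2 CPM in female pedicels, against 3.26, 0.730, 1.21, 0.639 and 1.01 CPM in male pedicels. In heads it had 19.8, 8.53, 9.48, 16.3 and 17.1 CPM in females, against 0.504, 0.846, 0.546, 0.937 and 0.528 CPM in males. Each female library lay above each male library, and male pedicel 1 was the highest of the 10 male libraries. The log2 fold was 3.93 (SE 0.37) in the pedicel, or 4.58 without male pedicel 1, and 4.40 (SE 0.40) in the head.

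AAEL019767 stood at the low end of the members. It had 21.9, 38.5, 15.04, 30.8 and 26.8 CPM in female pedicels, against 7.80, 10.2, 6.41, 14.4 and 6.09 CPM in male pedicels. Heads held 23.1, 13.4, 13.3, 27.3 and 21.6 CPM in females, against 8.94, 10.3, 8.33, 10.4 and 11.7 CPM in males. The sexes did not overlap in either tissue, though the gaps were small. This gave a log2 fold of 1.60 (SE 0.27) in the pedicel and 0.99 (SE 0.26) in the head.

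**Figure D2:**
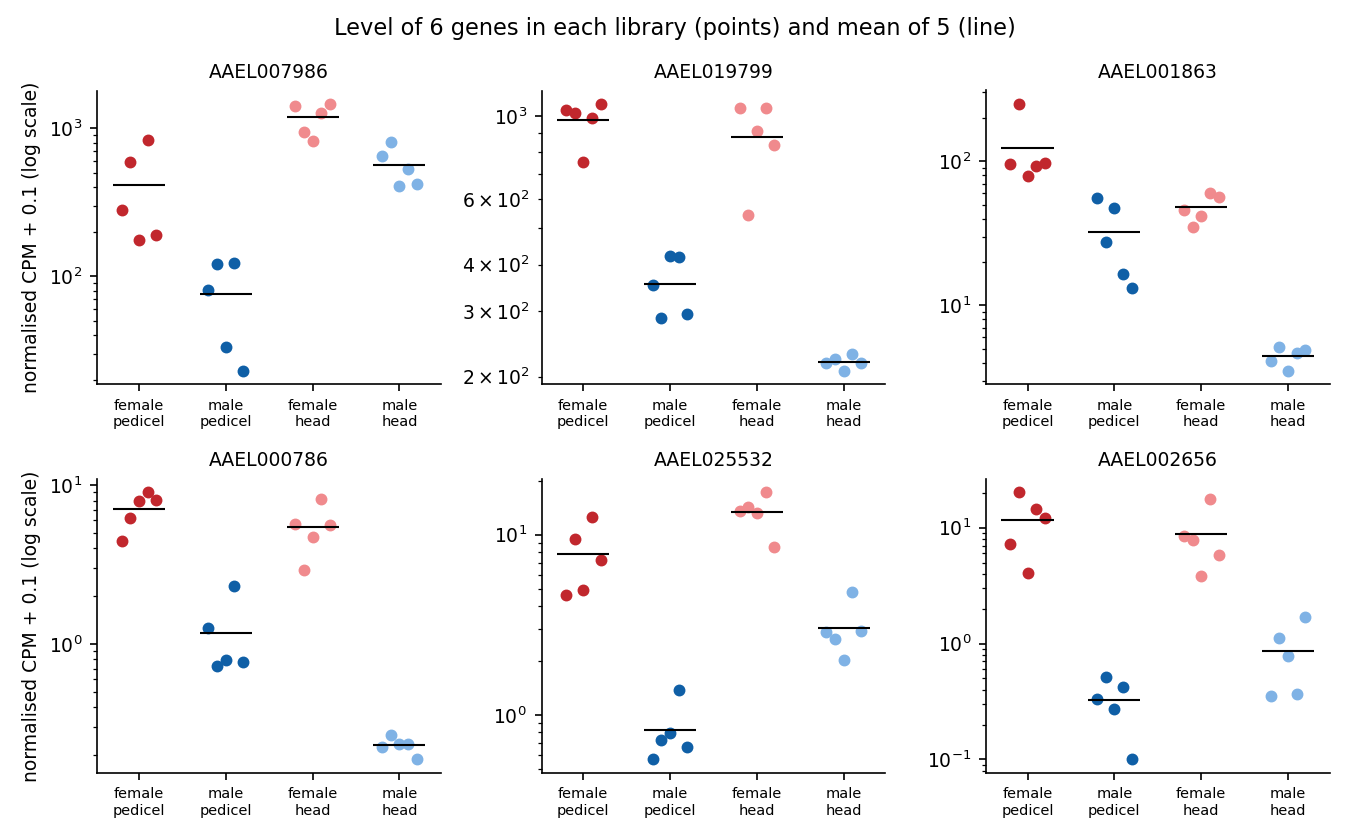
Normalised CPM plus 0.1 (log scale, a separate y axis per gene) of 6 members in each of the 20 libraries (points), with the mean of 5 libraries as a line. AAEL007986 was lower in pedicels than in heads, AAEL019799 was close in female pedicels and female heads, and AAEL001863 and AAEL000786 were higher in male pedicels than in male heads, where AAEL000786 had 5 counts over the 5 libraries.

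In females the members' log2 fold, pedicel over head, had a median of 0.52 (-1.51 to 1.42), beside 0.08 over all genes tested, and 77 were positive and 19 negative. The choice set a ceiling on the ratio of medians for this comparison. Its CPM minimum in female pedicels also set a floor, which was higher for members with a lower female head median. The members' position relative to all genes is therefore not independent of the choice. With library totals in place of TMM the median over all genes moved to -0.43 and that of the members to 0.01, so that the members stood above all genes by a like amount under both scalings, while the sign of their own median rests on the scaling. Among the most positive, AAEL029072 had 44.1, 83.8, 36.3, 50.6 and 50.6 CPM in female pedicels, against 29.8, 16.3, 9.37, 24.6 and 19.4 CPM in female heads. Its libraries did not overlap, and the log2 fold was 1.42 (SE 0.37).

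AAEL017536 had 115, 70.5, 57.6, 113 and 266 CPM in female pedicels, against 51.2, 28.4, 42.7, 57.7 and 59.1 CPM in female heads. Pedicel 5 was the highest and pedicel 3 lay below the highest head, and the log2 fold was 1.38 (SE 0.32), or 0.89 without female pedicel 5. At the other end, AAEL007986 had a log2 fold of -1.51 (SE 0.46), from the values given above.

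AAEL006704 was among the members with the widest spread. It had 8.62, 30.7, 1.62, 7.80 and 31.7 CPM in female pedicels, against 15.5, 0.388, 84.8, 15.6 and 100.003 CPM in female heads. In males it had 3.49, 7.30, 6.41, 1.28 and 1.01 CPM in pedicels and 0.630, 11.5, 11.2, 0.268 and 2.20 CPM in heads. All 4 groups overlapped, so that the medians of this gene met the limits although its libraries did not part by sex. Its female log2 fold, pedicel over head, was -1.43 with a standard error of 0.96.

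The sex difference of the members did not lean strongly to either tissue. The log2 fold in the pedicel minus that in the head had a median of 0.16 (-2.41 to 2.16), beside 0.00 over all genes, and was positive for 55 members and negative for 41. Without female pedicel 2 the members' median was -0.02, and with library totals in place of TMM it was -0.13, beside -0.29 over all genes, so that its sign is not settled. This difference is built from contrasts used for the choice and has no test here.

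AAEL002656 had the most positive difference, at 2.16 (SE 0.93). It had 7.06, 20.1, 3.93, 14.5 and 12.01 CPM in female pedicels, against 0.233, 0.417, 0.173, 0.319 and 0 CPM in male pedicels, where the 5 libraries held 8 counts. In heads it had 8.37, 7.76, 3.73, 17.7 and 5.74 CPM in females, against 0.252, 1.01, 0.683, 0.268 and 1.58 CPM in males. The 2 groups of females overlapped, and male values reached higher in heads than in pedicels.

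AAEL017293 had a difference of 1.98 (SE 0.67). It had 16.5, 21.2, 6.02, 26.5 and 13.5 CPM in female pedicels, against 1.40, 2.71, 0.866, 4.15 and 0.677 CPM in male pedicels, with no overlap. Heads held 10.8, 14.5, 8.47, 32.5 and 13.0 CPM in females, against 4.41, 8.12, 4.37, 11.1 and 5.72 CPM in males, with overlap. The log2 fold was 3.21 (SE 0.51) in the pedicel and 1.24 (SE 0.44) in the head, or 0.79 in the head without female head 4.

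The most negative differences belonged to AAEL000786, at -2.41 (SE 0.56), and AAEL001863, at -1.51 (SE 0.53). In both, the male head was the lowest of the 4 groups. Their log2 folds in the head were 5.22 (SE 0.42) and 3.44 (SE 0.41), and in the pedicel 2.82 (SE 0.33) and 1.93 (SE 0.36), in the same order, the last being 1.502 without female pedicel 2.

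Males alone gave a tissue comparison that was not itself a condition of the choice. Both male medians were capped relative to the female ones, so the comparison is not independent of the choice. Of the 96 members, 31 were called higher and 15 lower in male pedicels than in male heads by edgeR's quasi-likelihood test at an adjusted p under 0.05, and 50 were not called. Of all genes tested, 26.7% were called higher and 24.3% lower. Of the called members, 19 of those higher and 8 of those lower differed by 2-fold or more, a split not given here for all genes. The median log2 fold of the members, male pedicel over male head, was 0.41, beside 0.10 over all genes, with 65 members positive and 31 negative. With library totals in place of TMM, 17 members were called higher and 18 lower, beside 13.4% and 21.5% of all genes, and the medians were 0.14 over the members and -0.12 over all genes. Without male pedicel 2 the members called were 28 higher and 19 lower, with a median of 0.30, beside 28.1% and 25.1% of all genes.

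The largest fold among the called members that were higher belonged to AAEL001863. It had 55.3, 27.5, 47.5, 16.3 and 13.2 CPM in male pedicels, against 4.03, 5.07, 3.41, 4.55 and 4.84 CPM in male heads, and the lowest pedicel lay above the highest head. This gave a log2 fold of 2.87 (SE 0.40, edgeR test, adjusted p = 1.0e-05). Females showed the same order with no test, at 95.9, 249.9, 79.2, 92.3 and 96.8 CPM in pedicels, against 45.8, 34.8, 41.4, 60.3 and 56.4 CPM in heads. Levels thus ran from female pedicel through female head and male pedicel, which overlapped, to male head.

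AAEL000786 was low throughout. It had 1.16, 0.626, 0.693, 2.24 and 0.677 CPM in male pedicels, against 0.126, 0.169, 0.137, 0.134 and 0.0879 CPM in male heads. These rest on 33 counts in all male pedicels and 5 in all male heads, and the libraries did not overlap. The log2 fold was 2.79 (SE 0.48, edgeR test, adjusted p = 8.5e-05), and over 20 settings tried the adjusted p was at most 0.023. In females it had 4.38, 6.08, 7.87, 8.91 and 7.92 CPM in pedicels, against 5.62, 2.84, 4.63, 8.08 and 5.48 CPM in heads, which overlapped.

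Of the members called lower in male pedicels, AAEL007986 had the largest fold, with the 10 male values given above and a log2 fold of -2.90 (SE 0.49, edgeR test, adjusted p = 6.9e-05). Each male pedicel lay below each male head. AAEL025532 had 0.466, 0.626, 0.693, 1.28 and 0.564 CPM in male pedicels, against 2.77, 2.54, 1.91, 4.68 and 2.81 CPM in male heads. Its libraries did not overlap either, with a log2 fold of -2.13 (SE 0.36, edgeR test, adjusted p = 7.0e-05). In females it had 4.52, 9.39, 4.86, 12.5 and 7.15 CPM in pedicels, against 13.5, 14.1, 13.1, 17.1 and 8.42 CPM in heads, and the sexes did not overlap in either tissue.

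AAEL019799 was called higher in male pedicels, at 355 ± 64.5 CPM, than in male heads, at 219 ± 8.37 CPM (SD, n = 5 each). This gave a log2 fold of 0.70 (SE 0.16, edgeR test, adjusted p = 1.3e-03). The call ended with library totals in place of TMM, with an adjusted p of 0.21.

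**Figure D3:**
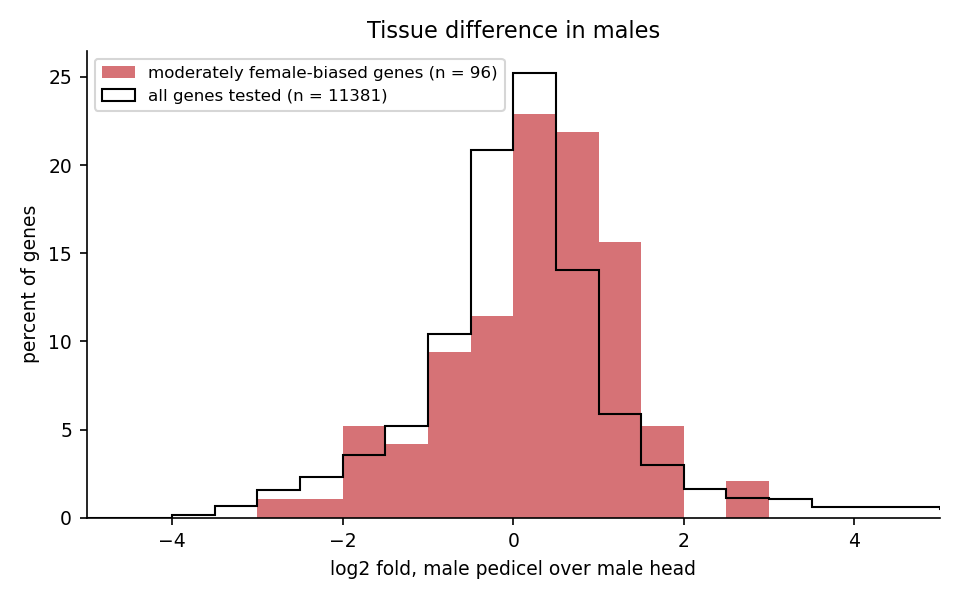
Distribution of the log2 fold, male pedicel over male head, over the 96 members (filled) and over the 11381 genes tested (outline), as percent of genes in bins of the fold. The members' median was 0.41 and that of all genes 0.10, and the members reached from -2.90 to 2.87.

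The level of head transcripts, which rests on genes picked for low values in pedicels, was passed by most members and by most genes of any kind. In female pedicels 90 of 96 members (93.8%) stood above 67.8% of their female head level, the highest level of head transcripts in a female pedicel, beside 86.0% of all genes tested. In male pedicels 89 of 96 (92.7%) stood above 36.6% of their male head level, which is that of male pedicel 2, beside 91.2% of all genes. No member lay below the lowest level of its sex. The 6 exceptions in females included AAEL007986 at 35.0%, AAEL006704 at 37.2%, AAEL025532 at 58.0% and AAEL013532 at 59.7%. The 7 in males included AAEL007986 at 13.5%, AAEL025532 at 24.6%, AAEL017293 at 29.1% and AAEL002656 at 30.1%. Standing above these levels does not show that a pedicel value is free of head transcripts. The CPM minimum in female pedicels kept out genes with low values there, so the female share is not independent of the choice. For all members the part of head transcripts in the pedicel values was not tested. Nor was their part in the higher level of female than of male pedicels.

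The members varied more between libraries of 1 group than other genes of their level. Among genes with a group mean of 10 to 100 CPM, the median coefficient of variation in female pedicels was 33.6% over 67 members, beside 19.8% over 5533 genes. In male pedicels it was 39.7% over 25 members, beside 18.1% over 5046 genes. In female heads it was 29.0% over 56 members, beside 13.0% over 4853 genes, and in male heads 18.5% over 21 members, beside 11.6% over 4758 genes. These values describe the libraries and have no test.

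The members moved up and down together from library to library. Over the 20 libraries, with group means removed, the median correlation between 2 members was 0.32, beside -0.01 between 2 genes tested, and 25.9% of the members' pairs were above 0.5, beside 8.88% of all pairs. These correlations share libraries and normalisation and are descriptive. Female pedicel 2 was the highest of its group for 63 members (65.6%, beside 30.0% of all genes) and female pedicel 3 the lowest for 55 (57.3%, beside 20.8%). Female head 4 was the highest for 48 members (50%, beside 17.0% of all genes). Female head 2 was the lowest for 42 members (20.6% of all genes) and female head 3 for 46 (27.2% of all genes). Male pedicel 5 was the lowest for 46 members (14.6% of all genes) and male head 3 for 45 (20.4% of all genes).

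Expressed as the median log2 deviation of the members from their group mean, female pedicels 2 and 3 lay at 0.49 and -0.45. Female head 4 was at 0.34, and female heads 2 and 3 were at -0.33 and -0.37. Among males, pedicel 5 was at -0.37, head 3 at -0.23 and pedicel 4 at 0.21. Over all genes tested, the median deviation of a library did not exceed 0.0311 in either direction. In female pedicels 1 to 5 the members' deviation was -0.19, 0.49, -0.45, 0.09 and 0.06, and the level of head transcripts was 67.7%, 34.1%, 44.4%, 59.2% and 67.8%. The part of head transcripts in these deviations was not tested.

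**Figure D4:**
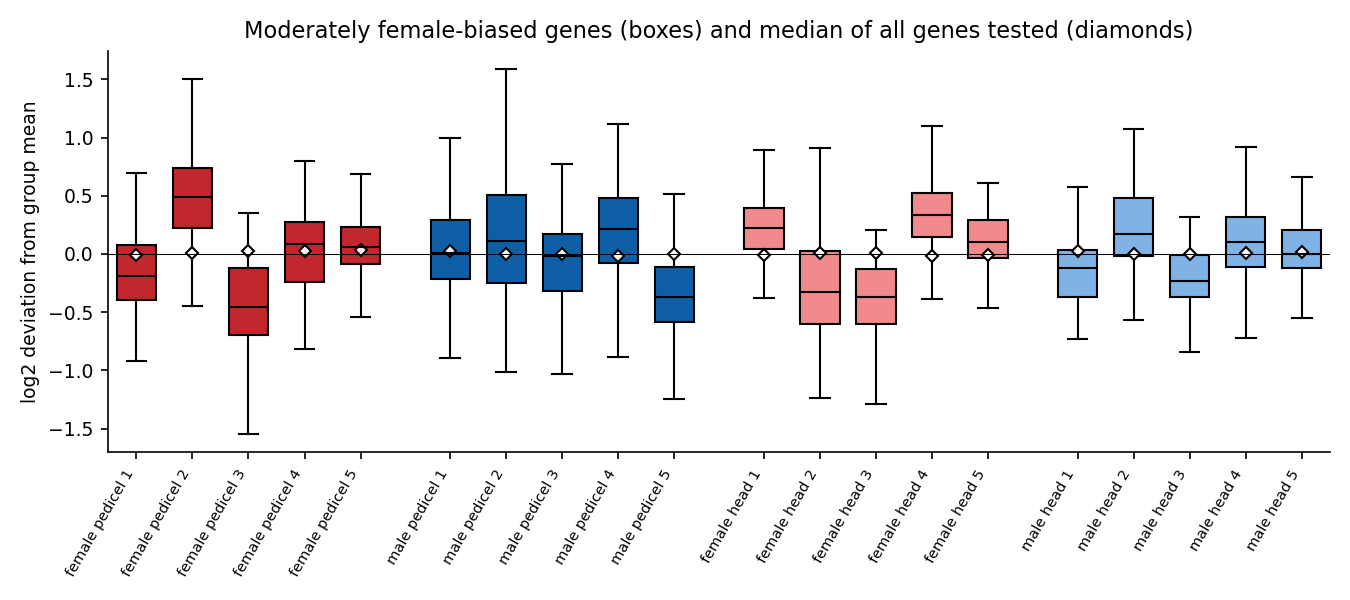
Log2 deviation of the 96 members from their group mean in each of the 20 libraries (box: quartiles and median, whiskers: range without outlying points), and the median over all genes tested (diamonds). Female pedicel 2 stands high at a median of 0.49 and female pedicel 3 low at -0.45, while the diamonds stay near 0.

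A few members were high in the same numbered library of both male tissues. For 20 members (20.8%) male pedicel 2 and male head 2 were each the highest of their group, beside 12.9% of all genes. For 5 of them (5.21%, beside 0.185% of all genes) both were at least 2 times the next library. These were AAEL003832, AAEL010139, AAEL015458, AAEL019868 and AAEL023031, chosen after their values were seen. Whether libraries of 1 number share animals is not stated in the labels.

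AAEL023031 had 334, 82.7, 83.3, 63.5 and 78.2 CPM in female pedicels, against 8.62, 81.0, 10.7, 16.9 and 6.43 CPM in male pedicels. In heads it had 97.5, 187, 56.0, 45.3 and 101.4 CPM in females, against 16.5, 205, 44.2, 18.9 and 44.5 CPM in males. Male pedicel 2 lay within the range of the female pedicels, male head 2 lay above all 5 female heads, and female pedicel 1 was far above the rest of its group. The log2 fold, female over male, was 2.36 (SE 0.79) in the pedicel and 0.57 (SE 0.75) in the head. Without male pedicel 2 and male head 2 it was 3.66 in the pedicel and 1.64 in the head, without female pedicel 1 it was 1.57 in the pedicel, and without female head 2 it was 0.20 in the head.

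AAEL015458 had 251, 656, 267, 249 and 202 CPM in female pedicels, against 52.6, 225, 41.8, 38.3 and 69.6 CPM in male pedicels. In heads it had 232, 219, 84.6, 204 and 145 CPM in females, against 23.8, 158, 34.4, 32.4 and 74.3 CPM in males. The sexes overlapped in both tissues, in each through the male library of number 2. The log2 fold was 1.92 (SE 0.56) in the pedicel and 1.45 (SE 0.56) in the head, or 2.68 and 2.09, in the same order, without the 2 male libraries.

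Transcript use, the share of each transcript in its gene's counts, was not a condition of the choice. A transcript found mainly in females also raises its gene's female over male ratio, so the measure is not independent of the choice. The table listed 1 transcript for 67 members and several for 29, with 11 at most, and no transcript of a member had the same values as one of another gene ID. Among the 23 members with at least 2 transcripts that could be tested, edgeR's diffSpliceDGE called 0 as different between the sexes in the head, where 0.266% of 3387 genes were called, and 0 in the pedicel, where 0.590% were. At an unadjusted p under 0.05 the members numbered 3 in the head (6.64% of all genes) and 1 in the pedicel (9.24% of all genes). In simulated data for the head this test found 64 of 200 genes whose transcripts had been swapped and made 21 false calls, so that a count of 0 says little. A likelihood-ratio fit, which found 146 of 200 there with 28 false calls, called 3 members in the head, where 1.21% of all genes were called, and 2 in the pedicel, where 3.04% were.

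AAEL010793 had the lowest p in the head. Its transcript RG had between 37 and 122 estimated counts in each of the 5 female heads and 0, as rounded, in each of the 5 male heads, where transcript RE held 67.4%, 44.3%, 78.6%, 68.2% and 62.7% of the gene's counts. RG held 58.5%, 67.9%, 32.5%, 61.4% and 76.6% of the gene's counts in female heads. In pedicels RG held 52.8%, 62.2%, 34.6%, 55.8% and 77.7% in females, against 0%, 73.6%, 8.98%, 0% and 0% in males. The sexes parted fully in the head and overlapped in the pedicel through male pedicel 2. The male shares rest on 235 counts of this gene in all male heads and 166 in all male pedicels. With 7 transcripts listed for the gene, these shares are imprecise.

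The adjusted p of AAEL010793 in the head was 0.056 by Simes' method in edgeR. It was 0.0020 with an F test per gene, 0.0016 with the likelihood-ratio fit and 0.010 in a fit of the head libraries alone. The call thus depends on the method.

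AAEL017536 had 3 transcripts, and its share of RC was not called different between the sexes by the main test. RC held 75.3%, 32.5%, 67.9%, 77.1% and 84.1% of its counts in female pedicels, against 20.4%, 19.3%, 35.1%, 0% and 27.8% in male pedicels. In heads RC held 63.5%, 61.1%, 59.9%, 55.9% and 58.5% in females, against 0%, 0%, 36.5%, 12.9% and 9.03% in males. RD held most of the rest, and RB was at 0 counts in all male pedicels and in all male heads but male head 1. The sexes did not overlap in the head, and in the pedicel female pedicel 2, at 32.5%, lay below male pedicel 3, at 35.1%. The adjusted p in edgeR's test by Simes' method was 0.31 in the head and 0.33 in the pedicel, where it was 0.0067 with an F test per gene and 0.0064 with the likelihood-ratio fit.

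The likelihood-ratio fit called AAEL011184 in both tissues (edgeR test, adjusted p = 9.3e-05 in the head and 0.043 in the pedicel) and AAEL002436 in the head (adjusted p = 6.8e-04). Over the pooled counts of AAEL011184, transcript RA held 59.4% in female heads, against 90.9% in male heads, and RC held 28.5% in female heads, against 5.84% in male heads. In pedicels RA held 52.2% in females, against 64.6% in males, and RC held 36.9% in females, against 30.8% in males. The shares of RA overlapped between the sexes in the pedicel, at 39.4% to 64.5% in females and 42.3% in male pedicel 3. For AAEL019799, which had among the lowest p in the pedicel, transcript RF held 14.1% in female pedicels, against 35.0% in male pedicels, and 18.6% in female heads, against 42.1% in male heads, and it was not called in either tissue under any setting tried.

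**Figure D5:**
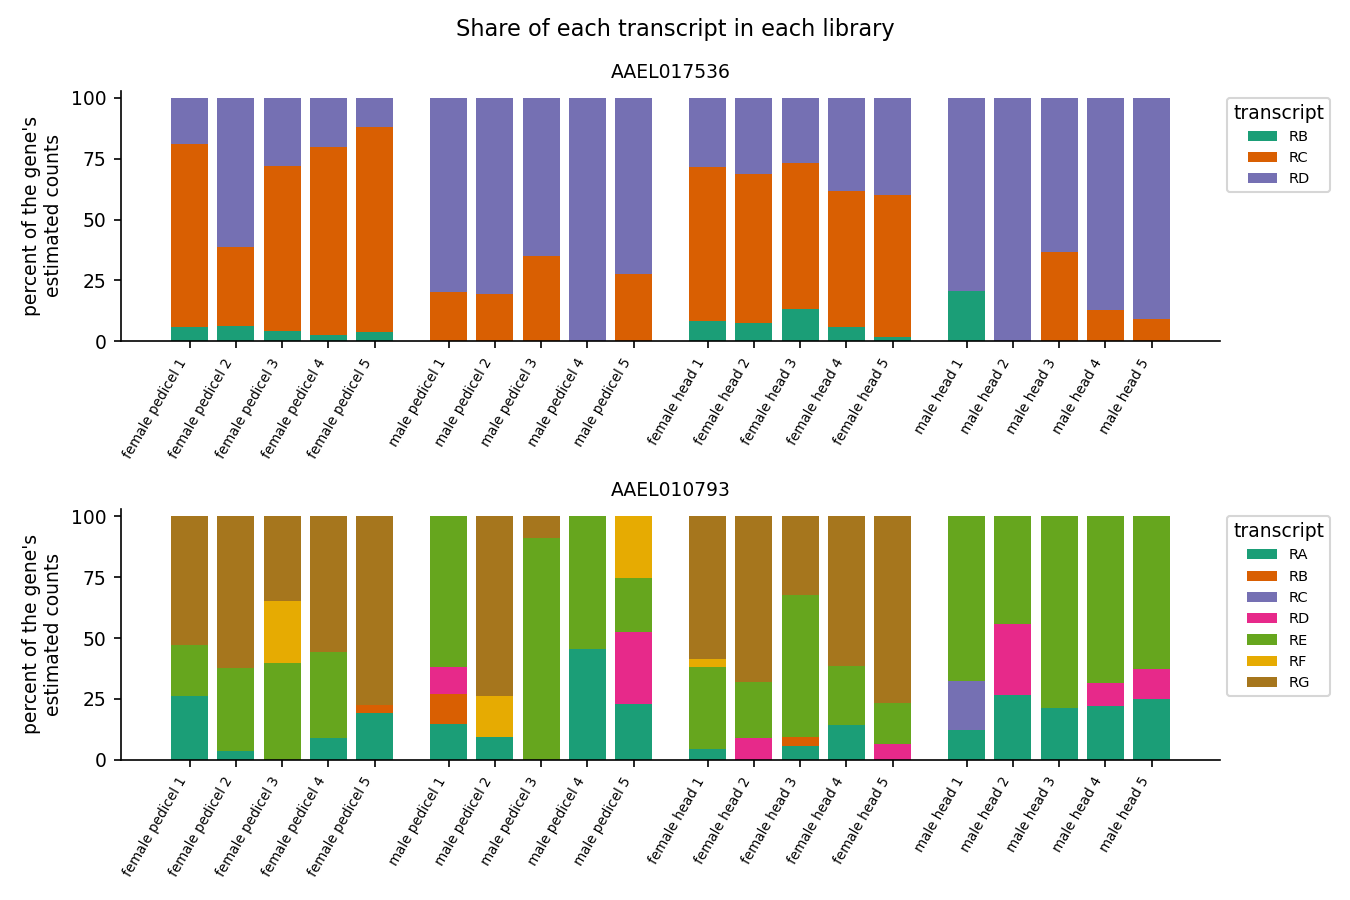
Share of each transcript in the estimated counts of AAEL017536 (upper panel) and AAEL010793 (lower panel) in each of the 20 libraries, in percent. In the lower panel RG, at 32.5% to 76.6% of the counts in female heads, is at 0.0283% or less in male heads, and in the upper panel RC is larger in female than in male heads.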

How the data were processed

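The authors deposited 1 table of estimated counts for 34477 transcripts in 20 libraries, with no scaling between libraries, and many values carry fractions. FastQC, HISAT2 and featureCounts are named per the submitters' processing notes, but no version, genome build or annotation is given in the sources used here. Sample descriptions name the table's columns, and all columns were matched.

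Estimated counts were summed by gene ID and rounded. Totals of 5060010 to 9404311 per library limit the precision of low genes. After filterByExpr by group, TMM scaling (factors 0.49 to 1.31) and robust estimates, 1 quasi-likelihood fit (edgeR 4.0.16 in R 4.3.3) gave all folds, each group having its own mean. Benjamini-Hochberg adjustment ran over all 11381 genes. A standard error is the absolute log2 fold over the square root of F. Transcript use was tested on 11544 transcripts of 3387 genes with diffSpliceDGE. For deviations, 0.5 was added to CPM before log2.

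Members, lists and tests were chosen with earlier results of these data known. Named members are at most 2 rises and 2 falls per comparison, by level, smaller ratio, fold among called members, interaction or p of transcript use, plus genes at each limit and those said to be chosen after their values were seen. The head transcripts are the 50 genes lowest in pedicels among those that reached 50 CPM in all heads and whose head log2 fold between the sexes stayed within 0.5.

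Gene names came from no source used here: 0 IDs matched the RefSeq table of assembly AaegL5.0, and lists by gene name and sequences were not analysed. On simulated data the fit found 69 of 100 genes changed 2-fold and 92 of 100 changed 4-fold between male pedicel and male head, with 9 false calls. Alternatives were RLE factors, library totals, other filters, DESeq2 1.42.0, limma-voom (limma 3.58.1), subsets of libraries and, chosen after seeing the data, a likelihood-ratio fit of transcript use and leaving out both male libraries of number 2.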

Additional observations from a re-analysis of the deposited data

Results flagged for a closer look

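Among 64 groups of 5 libraries of 16 named members, 14 held a library whose gap to its nearest neighbour exceeded 0.71 of the group's range, the 95% critical value of Dixon's test for 5 values. Chance gives such a library in about 1 in 20 groups if values are normally distributed and groups independent. These groups share libraries and their genes were picked by their values, so the 14 cannot be set against that share. Values are normalised CPM. In female pedicel 2, AAEL015458 stood at 656, AAEL001863 at 249.9 and AAEL001402 at 35.4, each above the rest of the group. In female pedicel 5, AAEL017536 stood high at 266, in female pedicel 1 AAEL023031 stood high at 334, and in female pedicel 3 AAEL019799 stood low at 755. In male pedicel 2, AAEL015458 stood high at 225 and AAEL023031 at 81.0. In male pedicel 1, AAEL017536 stood high at 31.9 and AAEL001402 at 3.26, and in male pedicel 4 AAEL025532 stood high at 1.28. In female head 4, AAEL013532 stood high at 29.7 and AAEL017293 at 32.5. In male head 2, AAEL023031 stood high at 205. Of the 14, 3 lie in the male libraries of number 2, and their genes AAEL015458 and AAEL023031 were named because of those libraries.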

How the results depend on the processing

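The number of genes that met the rule was 189 with a minimum of 1 CPM (all 96 members among them), 149 on TMM-scaled library sizes (78 shared), and 66 with a minimum of 10 CPM, and 77 to 121 with 1 library left out. Of male pedicel against male head, 46 members were called, where 26.7% of all genes tested were called higher and 24.3% lower. With library totals 35 were called (17 higher, 18 lower, median log2 fold 0.14), where 13.4% of all genes were called higher and 21.5% lower. At an adjusted p under 0.01 the number was 29 (17 higher, 12 lower), and without both male libraries of number 2 it was 44. Shares of all genes are not given here for the other settings of this comparison, so nothing is read from those counts. With 1 library left out, 36 to 47 were called, 22 to 31 higher and 12 to 19 lower, and the median was 0.30 to 0.49. Same-numbered libraries deviated together at over 0.1 in 2 to 4 of 5 pairs. For male pedicel and male head the correlation was 0.012 to 0.32, and the same number was the best match in 3 of 5. The labels do not state a pairing, and numbers were not taken as pairs in the main fit, which does not exclude one. With the replicate block 50 members were called (32 higher, 18 lower, median 0.38). The median sex fold was 1.52 with library totals in the pedicel, and 1.65 to 1.98 in the pedicel and 1.52 to 1.75 in the head with 1 library left out. The median female tissue fold was 0.012 with library totals and 0.36 to 0.60 with 1 library left out. The median interaction turned to -0.13 with library totals and to -0.023 without female pedicel 2, in a range of -0.023 to 0.25. Members called for transcript use in the head were 1 with an F test per gene, 1 in the head libraries alone, 3 with the likelihood-ratio fit, 0 with the replicate block and 0 to 1 with 1 library left out. In the pedicel they were 1 with the F test, 2 with the likelihood-ratio fit, 0 with the replicate block and 0 with 1 library left out. Shares of all genes called for transcript use are given above only for the main test and the likelihood-ratio fit. Nothing is read from the counts under the other settings. The causes were not tested. Of the single genes, 26 values moved by at least the standard error of their main log2 fold, 1 lost its call and 0 reversed. Depth limits members with few counts, such as AAEL000786 and AAEL002656 in males.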
